A study of Mus musculus with 9 samples.

Results

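The receptors for adenosine and the alpha-adrenergic receptors for adrenaline and noradrenaline form a set of 10 mouse genes that was followed across the choroid (CH), the retinal pigment epithelium (RPE) and the photoreceptors (PR). The set holds 4 adenosine receptors (Adora1, Adora2a, Adora2b and Adora3) and 6 alpha-adrenergic receptors (Adra1a, Adra1b, Adra1d, Adra2a, Adra2b and Adra2c). Its members were found by their symbols among the probes that are not controls, which gave 14 probes of 10 genes out of 39429 probes of 31829 genes. The genes were chosen on the tissue differences in log2(Cy5/Cy3) seen earlier in these same arrays, so their values are given as a description. Where a receptor is said to be called or past the thresholds, this only places its value against the limits used for all genes, and no p is given for it.

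The data are 9 two-colour Agilent arrays that cover the whole mouse genome, 3 for each tissue. Laser dissection took each sample from 1 whole eye of a female C57BL/6 mouse (J strain in the paper's methods), with no genetic change or treatment named in the labels and an age of 6 months with a range of 2 weeks (the paper's methods give an age one month lower). The amplified RNA of the tissue carried Cy5 and a pool of RNA from mouse RPE and choroid, the common reference, carried Cy3, the same way round on all arrays. All values are therefore log2(Cy5/Cy3), named log2 ratio here, where 0 means the level of the reference and a negative value a lower level. The reference holds no PR, and a log2 ratio of one probe cannot be set against that of another probe as a level.

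Adenosine and catecholamines act on the cell through receptors that cross the membrane 7 times and switch on G proteins. Adora2a and Adora2b couple to Gs and raise cAMP, whereas Adora1 and Adora3 couple to Gi and lower it. The alpha-1-adrenergic receptors (Adra1a, Adra1b and Adra1d) couple to Gq and phospholipase C, and the alpha-2-adrenergic receptors (Adra2a, Adra2b and Adra2c) couple to Gi. In the RPE, both adenosine and adrenaline are known to change ion and fluid transport between the subretinal space and the choroid, and in the choroid catecholamines set the tone of the vessels.

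Over the 9 arrays the median Cy5 signal was between 617 and 1534, and between 62.1% and 91.7% of the probes were well above background in Cy5. RPE replicate 2 stood apart with the highest share, 91.7%, while the other 8 arrays lay between 62.1% and 71.2%. The arrays were grouped by scan date into 3 sets, named slides here, and whether each set was 1 physical slide was not checked. Slide 1 held CH and RPE replicates 1 and 3, slide 2 held replicate 2 of each tissue, and slide 3 held PR replicates 1 and 3. The rod list (5 of 5 genes) and the cone list (4 of 4) were higher in the PR than in both other tissues (limma, adjusted p below 0.01 and fold change above 2.5), and of 6 RPE markers 4 exceeded the CH and 5 exceeded the PR in the RPE. Of these 6, Rpe65, Rdh5, Ttr and Rgr were saturated on all 3 RPE arrays, so their levels there are bounds only. The RPE marker Best1 was well above background on 1 RPE array, 1 PR array and 0 CH arrays. In such tissue samples, fewer cells of a type and less RNA per cell cannot be told apart.

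Among the receptors well above background on all 9 arrays, Adora2b and Adra2c were highest in the RPE, Adora1 in the CH and Adra2a in the PR, each with no overlap between the arrays of the tissues. The promoters of the first pair and of Adra2a are shown because these genes carry the main tissue patterns and 2 of them move together. The 250 bases before the transcription start of RefSeq (GRCm38.p6, plus strand, 5′ to 3′) are at chr11:62248734-62248983 for Adora2b, at chr5:35278316-35278565 for Adra2c and at chr19:54045009-54045258 for Adra2a. Capitals mark the GC box core GGGCGG, the CCAAT box, the E-box CACGTG and the short element TGACG, each on either strand.
Adora2b: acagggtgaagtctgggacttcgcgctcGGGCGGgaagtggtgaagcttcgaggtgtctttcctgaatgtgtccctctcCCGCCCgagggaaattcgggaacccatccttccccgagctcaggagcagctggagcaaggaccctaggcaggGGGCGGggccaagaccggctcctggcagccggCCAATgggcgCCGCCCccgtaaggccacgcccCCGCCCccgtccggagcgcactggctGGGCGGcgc
Adra2c: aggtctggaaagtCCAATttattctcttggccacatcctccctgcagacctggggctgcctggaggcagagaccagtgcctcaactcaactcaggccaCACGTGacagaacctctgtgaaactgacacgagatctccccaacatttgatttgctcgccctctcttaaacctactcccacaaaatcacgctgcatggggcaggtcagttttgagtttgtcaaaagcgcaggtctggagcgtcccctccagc
Adra2a: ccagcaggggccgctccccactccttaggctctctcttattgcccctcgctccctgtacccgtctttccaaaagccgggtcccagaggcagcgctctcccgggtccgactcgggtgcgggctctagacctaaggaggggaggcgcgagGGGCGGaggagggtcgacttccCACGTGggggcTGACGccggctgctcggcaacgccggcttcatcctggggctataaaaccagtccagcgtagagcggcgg

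The promoter of Adora2b had 69.6% G and C and held GGGCGG 6 times and CCAAT 1 time. The promoter of Adra2c had 53.6% G and C, CACGTG 1 time and CCAAT 1 time, but GGGCGG 0 times. That of Adra2a had 67.6% G and C and held the GC box core, the E-box and the short element TGACG 1 time each. Among all 32851 promoters of the same 250 bases, the median was 52.4% G and C, GGGCGG was present in 32.7%, CCAAT in 33.8%, the E-box in 6.02% and TGACG, a part of the cAMP response element, in 17.8%. The letters TAATCC, read by the photoreceptor factor CRX and by OTX proteins, were not in these 3 windows and were in 6.25% of all promoters. CATGTG, the core of the M-box of pigment cells, was not in them either and was in 12.3% of all promoters. Both strands were searched. None of the searched motifs overlaps another in these windows, and a match of letters is not a bound site. Promoter windows were matched for 7 of the 10 receptors, and not for Adora2a, Adra1a and Adra1d.

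**Figure D1:**
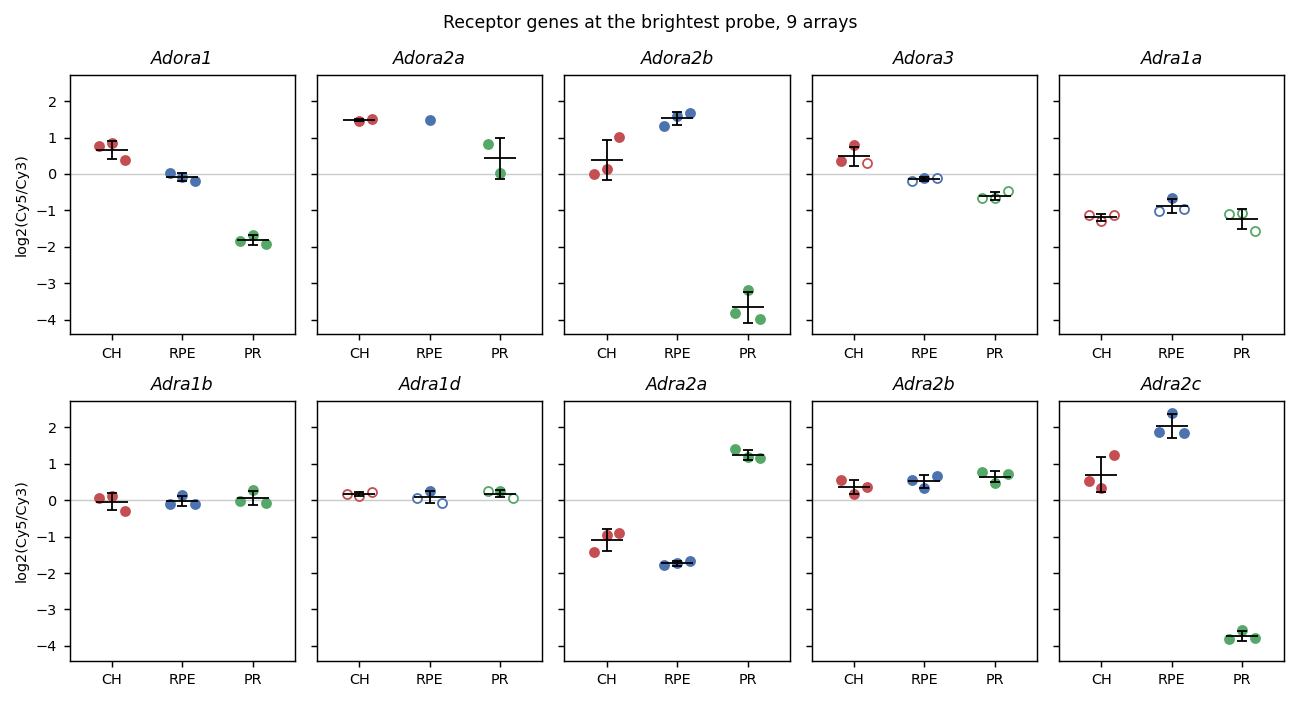
Each panel shows 1 receptor at its brightest probe, with log2(Cy5/Cy3) on the y axis and the tissue on the x axis. Points are arrays (replicates 1 to 3 from left to right, open where the probe was not well above background in Cy5) and the bars are the mean ± SD. Adora2b and Adra2c sit highest in the RPE and near -4 in the PR, Adra2a sits above 1 in the PR alone, and Adra1b and Adra2b are level across the tissues.

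Among the alpha-2-adrenergic receptors, Adra2c (NM_007418, probe on chromosome 5 from 35624269 to 35624328, mm9, plus strand) had the widest range. Its log2 ratio was 1.87, 2.40 and 1.84 on RPE replicates 1 to 3. On the CH arrays it was 0.52, 0.35 and 1.24, and on the PR arrays -3.81, -3.57 and -3.79. The arrays of the 3 tissues did not overlap, and CH replicate 3 was the one that came nearest to the RPE. The means were 2.04 ± 0.32 (SD, n = 3) for the RPE, 0.70 ± 0.47 (SD, n = 3) for the CH and -3.72 ± 0.13 (SD, n = 3) for the PR. The RPE exceeded the CH by 1.34 (SE 0.23) on the log2 scale, a 2.52-fold difference that lies just inside the fold change of 2.5 used for a call. It exceeded the PR by 5.76 (SE 0.23), or 54.2-fold, and the CH exceeded the PR by 4.42 (SE 0.23), or 21.5-fold. Within slide 1 the difference between RPE and CH was 0.97, and within slide 2 it was 2.06. Within slide 2 the RPE was 5.98 above the PR. The call of Adra2c over the CH was lost without CH replicate 1 (difference 1.24), CH replicate 2 (1.16) or RPE replicate 2 (1.15), and its difference without CH replicate 3 was 1.60. The call over the PR was kept with each of the 9 arrays left out.

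Adora2b, the low-affinity adenosine receptor that raises cAMP, was read by 2 probes. At the brighter one (NM_007413, chromosome 11 from 62079834 to 62079893, mm9, plus strand) the log2 ratio was 1.32, 1.59 and 1.67 on the RPE arrays. It was -0.001, 0.13 and 1.02 on the CH arrays and -3.82, -3.18 and -3.98 on the PR arrays. All RPE arrays lay above all CH arrays, again with CH replicate 3 nearest to them. The RPE exceeded the CH by 1.14 (SE 0.28), a 2.21-fold difference that is below the fold change of 2.5, and exceeded the PR by 5.19 (SE 0.28), or 36.4-fold. The paper, at the same thresholds, lists both Adora2b and Adra2c among its mouse RPE signature genes. The CH exceeded the PR by 4.04 (SE 0.28), or 16.5-fold. Between RPE and CH the difference was 0.98 within slide 1 and 1.46 within slide 2, and without CH replicate 3 it was 1.46 and past the thresholds.

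The other probe of Adora2b lies upstream on the same strand (chromosome 11 from 62078754 to 62078813). Its log2 ratio was 0.10, 0.11 and 0.07 on the RPE arrays, -0.93, -1.50 and -1.49 on the CH arrays and -2.13, -2.24 and -2.30 on the PR arrays. The 3 tissues were again separate and in the same order. Here the RPE was 1.40 (SE 0.15) above the CH, or 2.64-fold, and passed the thresholds, and it was 2.32 (SE 0.15) above the PR, or 4.99-fold. The CH was only 0.92 (SE 0.15) above the PR at this probe, 1.89-fold as against 16.5-fold at the brighter one, and not past the thresholds. At this probe CH replicate 3 was not the nearest to the RPE, and CH replicate 1 was. The probes thus agreed on the order RPE, CH, PR and differed in size, and whether they read different transcripts was not tested.

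Several marker lists moved with Adra2c and the brighter Adora2b probe among the CH arrays, but not with the other Adora2b probe. The mean log2 ratio of the 6 RPE markers was 0.53, 0.27 and 1.11 on CH replicates 1 to 3, so that replicate 3 was highest, as it was for Adra2c and the brighter Adora2b probe. On the RPE arrays the list lay between 1.80 and 2.11 and on the PR arrays between -2.68 and -2.33. Of the RPE markers, Ttr was saturated on 3 CH arrays, Rdh5 and Rgr on 2 and Rpe65 on 1. CH replicate 3 was the highest CH array for 4 of 14 marker lists, which were the RPE, rods (-0.50, against -1.19 and -0.75), cones and Muller glia, and the lowest for 9. The part of other tissues in the CH values of Adra2c and Adora2b was not tested. The fibroblast list ran the other way, between 1.27 and 1.69 on the CH arrays and between -1.14 and -0.79 on the RPE arrays, and all 6 of its genes were higher in the CH.

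Adra2a, the alpha-2-adrenergic receptor best known from nerve endings (NM_007417, chromosome 19 from 54123363 to 54123422, mm9, plus strand), had the opposite pattern. The log2 ratio was 1.41, 1.18 and 1.16 on the PR arrays. It was -1.43, -0.94 and -0.91 on the CH arrays and -1.79, -1.73 and -1.66 on the RPE arrays. All PR arrays were above the reference and all other arrays below it. The means were 1.25 ± 0.14 (SD, n = 3) for the PR, -1.09 ± 0.29 (SD, n = 3) for the CH and -1.73 ± 0.07 (SD, n = 3) for the RPE. The PR exceeded the RPE 7.88-fold (RPE minus PR -2.98, SE 0.14) and the CH 5.09-fold (CH minus PR -2.35, SE 0.14). The RPE was lower than the CH by 0.63 (RPE minus CH -0.63, SE 0.14), with no overlap between the arrays but below the fold change for a call. Within slide 2, RPE minus PR was -2.91 and CH minus PR was -2.13. Adra2c and Adra2a, both coupled to Gi, thus lay at opposite ends of the RPE and PR comparison.

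Retinal cell lists had these values beside Adra2a. The rod list had a mean log2 ratio between 3.33 and 3.47 on the PR arrays and between -1.19 and 0.28 on the other 6. The inner retina list had 1 of 6 genes called higher in the PR than the RPE, with a list mean between -1.78 and -0.92 on the PR arrays, and was highest on PR replicate 2. Adra2a was 1.18 on that array and 1.41 and 1.16 on PR replicates 1 and 3. The part of rods and inner retinal cells in the Adra2a values was not tested.

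Adra2b was level. Its probe (NM_009633, chromosome 2 from 127192619 to 127192678, mm9, plus strand) gave log2 ratios of 0.57, 0.18 and 0.36 in the CH, 0.55, 0.33 and 0.68 in the RPE and 0.76, 0.47 and 0.71 in the PR. The tissues overlapped in each comparison. The differences were 0.15 (SE 0.14) between RPE and CH, -0.13 (SE 0.14) between RPE and PR and -0.28 (SE 0.14) between CH and PR. The signal was well above background on all 9 arrays.

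**Figure D2:**
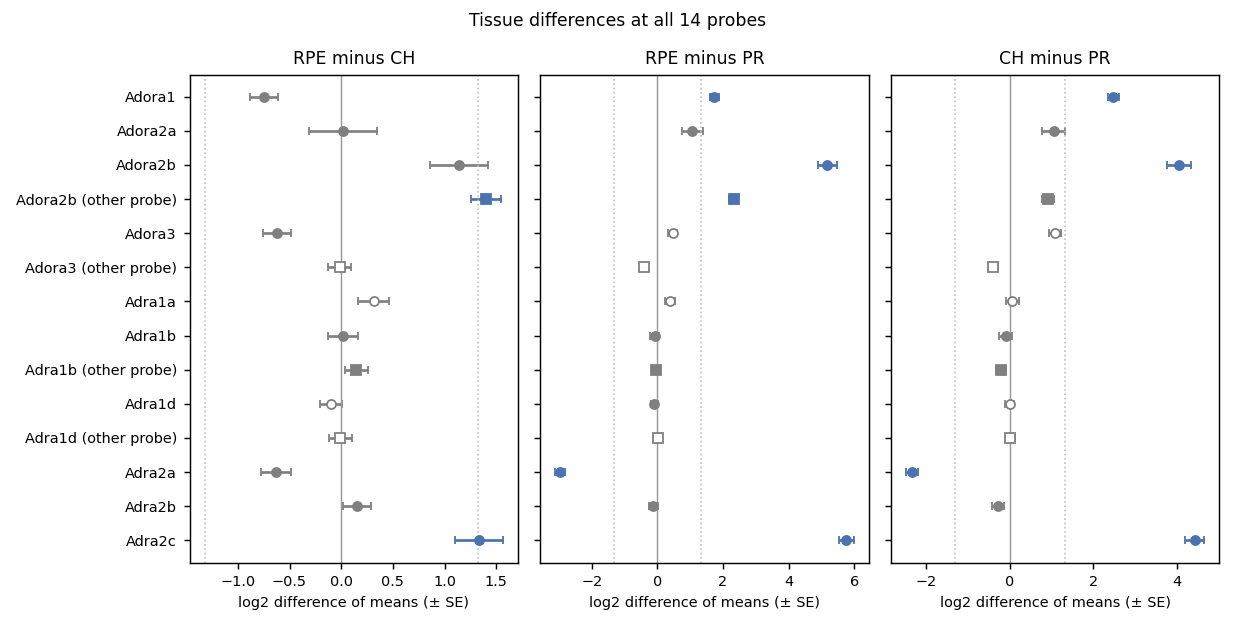
The log2 difference of the tissue means with its SE (x axis) is shown for each of the 14 probes (y axis, squares for the other probe of a gene) in 3 comparisons. Blue marks a difference past the thresholds, open symbols a probe with a tissue below background on all its arrays, and dotted lines a 2.5-fold difference. Adra2c and Adora2b lie far to the right against the PR and Adra2a far to the left.

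Adora1, the high-affinity receptor that lowers cAMP, was highest in the CH. Its probe (NM_001008533, chromosome 1 from 136095833 to 136095892, mm9, minus strand) had log2 ratios of 0.77, 0.85 and 0.38 on the CH arrays, 0.03, -0.09 and -0.18 on the RPE arrays and -1.85, -1.67 and -1.91 on the PR arrays. The 3 tissues were separate and followed the order CH, RPE, PR. The CH exceeded the RPE 1.68-fold (RPE minus CH -0.75, SE 0.14), which is below the fold change for a call. The RPE exceeded the PR by 1.73 (SE 0.14) and the CH exceeded it by 2.48 (SE 0.14), and both were past the thresholds. Between RPE and CH the difference was -0.65 within slide 1 and -0.93 within slide 2. CH replicate 3, the lowest of the CH arrays for Adora1, was also the lowest of them for 9 of the 14 marker lists, among them endothelium (0.88, against 1.54 and 1.22), smooth muscle and pericytes (1.00, against 1.71 and 1.70), fibroblasts (1.27, against 1.61 and 1.69) and Schwann cells (1.26, against 1.66 and 1.62). Their part in the value of Adora1 was not tested.

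Adora2a, the other receptor that raises cAMP, was above the reference on each array that could be used. Its probe (NM_009630, chromosome 10 from 74797461 to 74797520, mm9, plus strand) carried an outlier mark of the scanner software on 4 of 9 arrays, and these spots were dropped from the fit. The log2 ratio was 1.45 and 1.50 on CH replicates 2 and 3, 1.49 on RPE replicate 2, and 0.83 and 0.03 on PR replicates 1 and 2. The CH and RPE values were alike and the PR values lower and apart from each other. The differences were 0.02 (SE 0.33) between RPE and CH, 1.06 (SE 0.33) between RPE and PR and 1.05 (SE 0.27) between CH and PR, none past the thresholds. With the marked spots kept they were 0.10, 0.90 and 0.79. The fitted RPE value rests on 1 array. Without PR replicate 1 the differences against the PR were 1.46 for the RPE and 1.45 for the CH. Without PR replicate 2 they were 0.67 and 0.65. Each of these fits left 1 PR array with a value, so no call is read from them. With the replicate block they were 1.46 and 1.42, which are the differences within replicate 2 alone, with 1 array per tissue.

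Adora3, the receptor known from mast cells and other leukocytes, was weak. Its probe (NM_009631, chromosome 3 from 105711212 to 105711271, mm9, plus strand) was well above background on 2 CH arrays, on RPE replicate 2 and on 0 PR arrays. The log2 ratio was 0.36, 0.79 and 0.29 in the CH, -0.21, -0.10 and -0.10 in the RPE and -0.67, -0.66 and -0.47 in the PR. The arrays of the 3 tissues did not overlap, in the order CH, RPE, PR. Because the PR signal is only a bound, the CH was at least 1.55-fold above the PR in the Cy5 channel after loess and Aquantile, a value that dye bias can affect, since every array had the same dye orientation. RPE minus CH was -0.62 (SE 0.13). The mast cell list had a mean log2 ratio from -0.36 to 0.50 on CH arrays, from -0.93 to -0.31 on RPE arrays and from -1.67 to -1.37 on PR arrays, and 3 of its 4 genes were called higher in the CH than the PR. Its part in the Adora3 values was not tested. A further probe bears the name Adora3 in the files (chromosome 3 from 105721698 to 105722939, mm9), but RefSeq gives its accession NM_027025 to Tmigd3, and it was well above background on 0 of 9 arrays.

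None of the alpha-1-adrenergic receptors was past the thresholds in any of the 3 comparisons. Adra1a, the subtype that contracts smooth muscle in many vessels (NM_013461, chromosome 14 from 67352013 to 67352072, mm9, plus strand), was well above background on RPE replicate 2 alone. Its log2 ratio was from -1.30 to -1.13 on CH arrays, from -1.01 to -0.66 on RPE arrays and from -1.57 to -1.07 on PR arrays, so that the RPE arrays lay above all others. RPE minus CH was 0.31 (SE 0.15) in all and 0.15 within slide 1, which does not hold RPE replicate 2. Adra1d was read by 2 probes on the minus strand of chromosome 2, from 131371721 to 131371780 and from 131371198 to 131371257 (mm9, NM_013460). The first was well above background on RPE replicate 2 and PR replicate 2 only, the second on 0 of 9 arrays. Both had overlapping tissues in all 3 comparisons. On the other RPE arrays, which had fewer probes above background in all, none of Adra1a, Adra1d and Adora3 was well above it.

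Adra1b, in contrast, was well above background on all 9 arrays at both probes (NM_007416, minus strand of chromosome 11 from 43589067 to 43589126 and from 43588147 to 43588206, mm9). The brighter probe had log2 ratios of 0.06, 0.12 and -0.31 in the CH, -0.10, 0.13 and -0.11 in the RPE and -0.02, 0.28 and -0.08 in the PR. The tissues overlapped in all comparisons, and the differences between their means were 0.02, -0.09 and -0.10 (SE 0.15 each) for RPE minus CH, RPE minus PR and CH minus PR. At the other probe they were 0.15, -0.06 and -0.21 (SE 0.11 each). Over the 26 alternatives of processing, RPE minus CH of the gene was between -0.20 and 0.46, so its sign is not settled.

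The probes of Adra2b, Adra1b and Adora2a differed from the other receptor probes in the signal of the common reference. The stretch of 30 bases with the fewest distinct 3-base words is shown for the probes of Adra1b and Adora2a, with short repeats in capitals, because some of these stretches are repetitive.
Adra1b brighter probe, bases 20 to 49 of the probe: aagtCTCTCTCTCTtCTCTCTCTgtatata
Adra1b other probe, bases 6 to 35: tgtaCACACACACAagCACACACACAatgt
Adora2a, bases 3 to 32: ttgTTTGTTTGTTTGtgttttattttcccc
Adra2c, bases 17 to 46, for comparison: gaaaaaggcatctgtctgggggaggagaga

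The 60-base probe of Adra2b was 60% T and held 15 distinct 3-base words, and 0.203% of all probes held as few or fewer. The other Adra1b probe held 24 (1.04% of probes as few or fewer), the Adora2a probe 30 (8.03%) and the brighter Adra1b probe 34 (37.8%). The probe of Adra2c held 37, and the median over the 39429 probes was 36. The probes of Adra1d, whose tissues overlapped as well, held 40 and 36. The 4 probes of Adra2b, Adra1b and Adora2a were those where the reference signal was lower on slide 2 than on the other slides by more than 0.6. The reference is the same RNA on all arrays, and its raw Cy3 signal, as log2 relative to the median of each array, was lower on slide 2 than on the other slides by 1.77 (-1.77) and 1.04 (-1.04) at the Adra1b probes, by 0.70 (-0.70) at the Adra2b probe and by 0.66 (-0.66) at the Adora2a probe, marked spots included. At the other 10 receptor probes the difference was between -0.02 and 0.51. Among these, the probes of Adora3, Adra1a and Adra1d were well above background in Cy3 on few or no arrays, so their differences are of signals near background. The probes of Adora1, Adora2b, Adra2a and Adra2c lay between -0.02 and 0.42. For both Adra1b probes and for Adra2b the 3 arrays of slide 2 lay below all 6 others. The Cy5 signal moved the same way, by -1.99 and -1.12 at the Adra1b probes, -1.25 at the Adra2b probe and -1.14 at the Adora2a probe, so that the ratio changed less than either channel.

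Over the whole array, the median of this Cy3 difference was -0.50 in the 368 probes with 24 or fewer distinct 3-base words and 0.21 in the 39061 others. A signal lower by 1 or more on slide 2 was seen in 37.8% of the former and 3.29% of the latter. Among the probes well above background on all arrays, the tissue means spanned less than 0.3 in 20.7% of the former and 13.2% of the latter. The limit of 24 was taken from the other Adra1b probe after its values were seen, so these shares have no test. The part of probe composition in the level pattern of Adra1b and Adra2b was not tested.

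**Figure D3:**
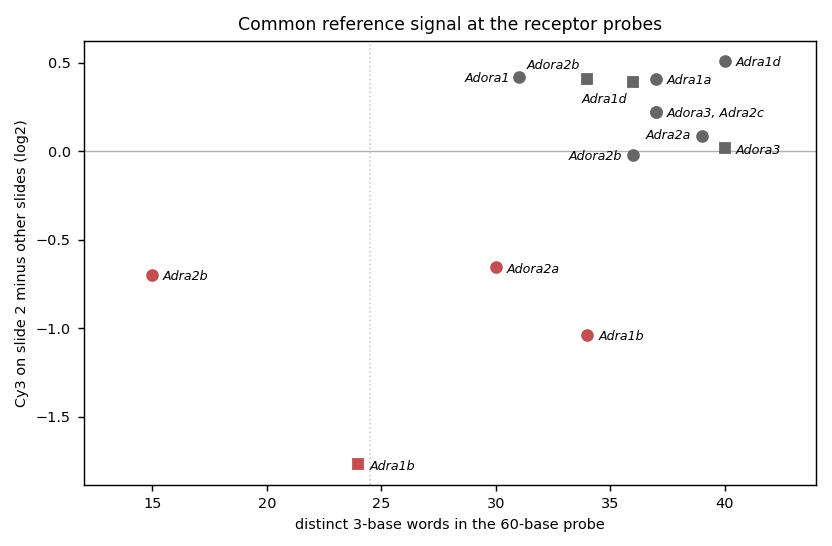
For the 14 receptor probes, the y axis gives the raw Cy3 signal of the common reference on slide 2 minus that on the other slides (log2, relative to each array's median) and the x axis the number of distinct 3-base words in the probe. Circles are brightest probes, squares other probes, and the dotted line separates probes with 24 or fewer words. Red marks the probes of Adra1b, Adra2b and Adora2a, which lie between -1.77 and -0.66, while the others lie between -0.02 and 0.51. Of the others, the probes of Adora3, Adra1a and Adra1d were well above background in Cy3 on few or no arrays.

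Counted over all receptors at the brightest probe, 1 of 10 (Adra2c) was called higher in the RPE than the CH, where 0.179% of all genes were, and 0 of 10 higher in the CH, where 1.74% of all genes were. Against the PR, 3 of 10 (Adora1, Adora2b and Adra2c) were called higher in the RPE (10.9% of all genes) and 1 of 10 (Adra2a) higher in the PR (5.19% of all genes). The same 3 receptors were called higher in the CH than the PR (12.7% of all genes) and Adra2a higher in the PR than the CH (6.01% of all genes). The comparisons share arrays and the receptors were chosen with them in view, so nothing is read from these counts. All 4 adenosine receptors had a positive difference against the PR in both tissues (for Adora3 against a PR signal below background), with medians of 1.40 for the RPE and 1.78 for the CH, where the medians over all genes were -0.004 and -0.05. The 6 alpha-adrenergic receptors had medians of -0.09 and -0.05.

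The profile of Adra2c over the 9 arrays was closest to those of Tbc1d1, Tshr, Tes, Slc6a13 and Cldn1, out of 21333 genes well above background in a tissue and never saturated. The measure was the root mean square difference of the log2 ratios, each centred on its own mean, and it was between 0.14 and 0.22. Tshr is the thyrotropin receptor, which couples to Gs, Slc6a13 a transporter of GABA and Cldn1 a protein of tight junctions. On these arrays the genes were between 1.15 and 1.49 higher in the RPE than the CH on the log2 scale and between 5.59 and 6.04 higher than in the PR. For Tshr, the paper's semi-quantitative RT-PCR had the other direction, lower in the RPE than in the choroid. For Adra2a the closest were Stag3, XM_001472876, 1700007E05Rik, Radil and AW111846, at 0.19 to 0.24. Stag3 is a cohesin subunit known from meiosis. Their RPE minus PR differences were between -3.02 and -2.60, where Adra2a had -2.98. Their RPE minus CH differences were between -0.62 and -0.16, where Adra2a had -0.63. For both receptors the likeness of these differences follows from how the genes were picked.

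**Figure D4:**
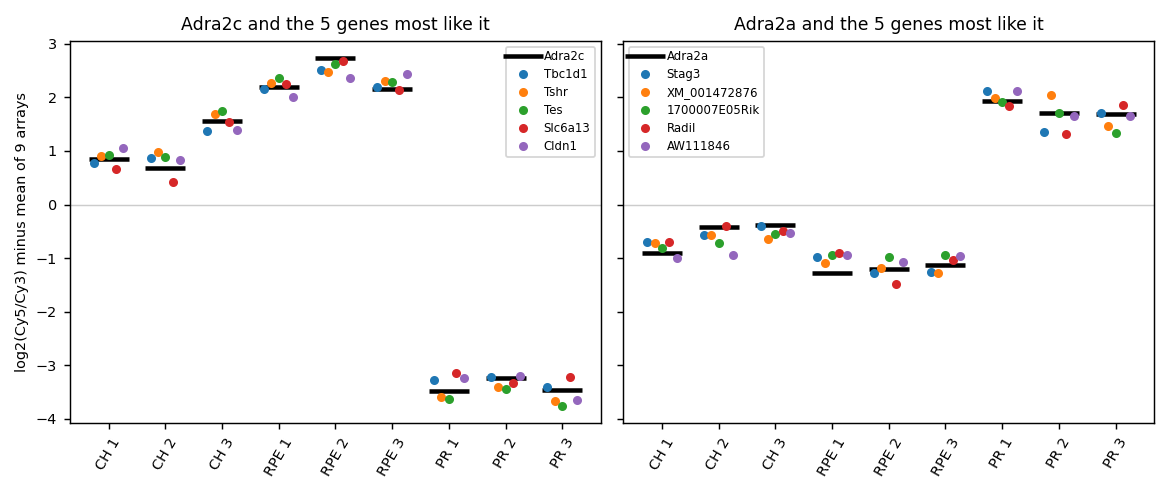
The log2 ratio minus its mean over the 9 arrays (y axis) is shown for each array (x axis). Bars are Adra2c (left) and Adra2a (right) and points the 5 genes with the smallest root mean square difference from each. CH replicate 3 is the highest CH array for Adra2c and also for the 5 genes beside it, which were picked for their likeness over these same arrays.

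Adrb1 and Adrb3, beta-adrenergic receptors that couple to Gs, were not called between RPE and CH (limma). Adrb1, the receptor known from heart muscle, had means of -0.51 ± 0.30 (SD, n = 3) for the CH, -0.88 ± 0.25 (SD, n = 3) for the RPE and 1.11 ± 0.08 (SD, n = 3) for the PR. It was higher in the PR than the RPE (RPE minus PR -1.995, adjusted p = 5.17e-06, limma) and than in the CH (CH minus PR -1.62, adjusted p = 1.92e-05, limma), the same direction as Adra2a. At the median of the Adrb1 probes the call between CH and PR was lost (-1.27). Adrb3 had RPE minus PR of -1.19 (adjusted p = 1.31e-05, limma), below the fold change for a call, and was well above background on 1 CH array.

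Of the 84 genes listed for the formation and removal of adenosine and catecholamines and for signalling below these receptors, 82 were on the array by name. Against the CH, 0 of 82 were called higher in the RPE (0.179% of all genes) and 4 lower (1.74% of all genes, limma), where 17 and 30 had an unadjusted p below 0.05 in these directions. Without CH replicate 1, Rapgef4 was also called higher in the RPE. The paper lists Pde4b, one of the 82, among its mouse RPE signature genes at the same thresholds. Here Pde4b was 0.43 higher in the RPE than the CH and not called, also not at its probe with the largest difference. Against the PR, 27 were called higher and 7 lower in the RPE (10.9% and 5.19% of all genes), with a median difference of 0.54, and 31 higher and 8 lower in the CH (12.7% and 6.01% of all genes), with a median of 0.95.

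Entpd1 and Entpd2 split extracellular ATP, the step before adenosine is formed. Entpd2 was lower in the RPE than the CH (-1.92, adjusted p = 0.000127, limma), and both were higher in the RPE than the PR, Entpd2 by 2.67 (adjusted p = 5.03e-07, limma) and Entpd1 at least 12.2-fold, as it was not well above background in the PR. Nt5e, the ecto-enzyme CD73 that releases adenosine from AMP, had the reverse direction and was higher in the PR than the RPE (-1.71, adjusted p = 0.000126, limma), as was the phosphatase Alpl (-1.81, adjusted p = 1.39e-06, limma). Of the adenosine transporters, Slc29a1 was higher in the RPE than the PR by 2.31 (adjusted p = 1.35e-06, limma), Slc28a2 at least 1.87-fold, and Slc29a2 was higher in the PR (-1.96, adjusted p = 1.34e-05, limma). Ada, which deaminates adenosine, was lower in the RPE than the CH (-1.49, adjusted p = 0.000547, limma). This call of Ada was lost with the Feature Extraction processed signals (-1.68).

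Of 11 catecholamine genes, 6 were called higher in the RPE than the PR. Among them Ddc, which makes dopamine from DOPA, was 4.47 higher (adjusted p = 3.77e-08, limma), and the catecholamine-degrading Maob 3.59 (adjusted p = 6.17e-08, limma) and Maoa 2.26 (adjusted p = 5.34e-08, limma). Slc18a2, the vesicular monoamine transporter, was lower in the RPE than the CH (-2.57, adjusted p = 0.000228, limma). This call of Slc18a2 was lost with the series table (-2.32).

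Of the G protein subunits 6 of 11 were higher in the RPE than the PR and 1 lower. Gnai1 and Gnai2, of the Gi class that Adra2c and Adora1 use, were higher by 3.14 and 2.24 (adjusted p = 3.4e-07 and 3.81e-06, limma), and Gnas, the Gs subunit that Adora2b uses, by 2.51 (adjusted p = 7.15e-06, limma), with 1 RPE and 1 CH array saturated. At the median of its 4 probes the difference of Gnas was 0.004 and not called, and the call was also lost with the series table (1.55). Gnaz, also of the Gi class, was higher in the PR (-2.14, adjusted p = 2.91e-06, limma), in the direction of Adra2a. Of 10 adenylyl cyclases, the enzymes that make cAMP, 3 were higher in the RPE than the PR, Adcy7 by 3.34, Adcy4 by 2.91 and Adcy3 by 1.58 (adjusted p = 4.24e-08, 4.95e-08 and 7.19e-06, limma), and Adcy1 was lower (-2.81, adjusted p = 4.78e-07, limma). Adcy7 was also lower in the RPE than the CH (-1.66, adjusted p = 0.000114, limma).

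Of 10 phosphodiesterases that degrade cAMP, Pde4a and Pde4b were higher in the RPE than the PR by 1.62 and 2.12 (adjusted p = 0.000263 and 1.26e-05, limma) and Pde8a lower (-2.13, adjusted p = 3.7e-06, limma), and Pde3b was called in the CH against the PR alone (2.11, adjusted p = 4.9e-06, limma). The call of Pde4a was lost with the slide block (1.10), the median of its probes (1.24), the Cy5 channel alone (1.44) and the series table (1.46). The cAMP-bound exchange factors Rapgef3 and Rapgef4 were higher in the RPE by 3.68 and 3.32 (adjusted p = 1.56e-08 and 2.43e-06, limma). Prkar2b and Prkar2a, regulatory subunits of protein kinase A, were called in CH against PR, in opposite directions (1.52 and -1.68, adjusted p = 5.99e-06 and 1.2e-05, limma), and the call of Prkar2b was lost at the median of its probes (0.89), in the Cy5 channel alone (1.25) and with the series table (1.22). Of 4 phospholipases C beta, the Gq effectors, Plcb3 and Plcb1 were higher in the RPE than the PR by 2.48 and 1.35 (adjusted p = 1.34e-07 and 0.000133, limma). The call of Plcb1 was lost in 8 alternatives, among them the slide block (0.86), the median of its probes (0.86) and the fits without PR replicate 1 (1.24), PR replicate 3 (1.26) or RPE replicate 1 (1.28). Of 7 receptor kinases and arrestins, which switch such receptors off, Arrb1 and Adrbk2 were higher by 2.33 and 1.43 (adjusted p = 1.74e-07 and 0.000144, limma), and Adrbk1 in CH against PR alone (1.42, adjusted p = 1.1e-06, limma). The call of Adrbk2 was lost with the slide block (1.25) and without PR replicate 3 (1.30) or RPE replicate 2 (1.31). That of Adrbk1 was lost with the series table (1.30).

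**Figure D5:**
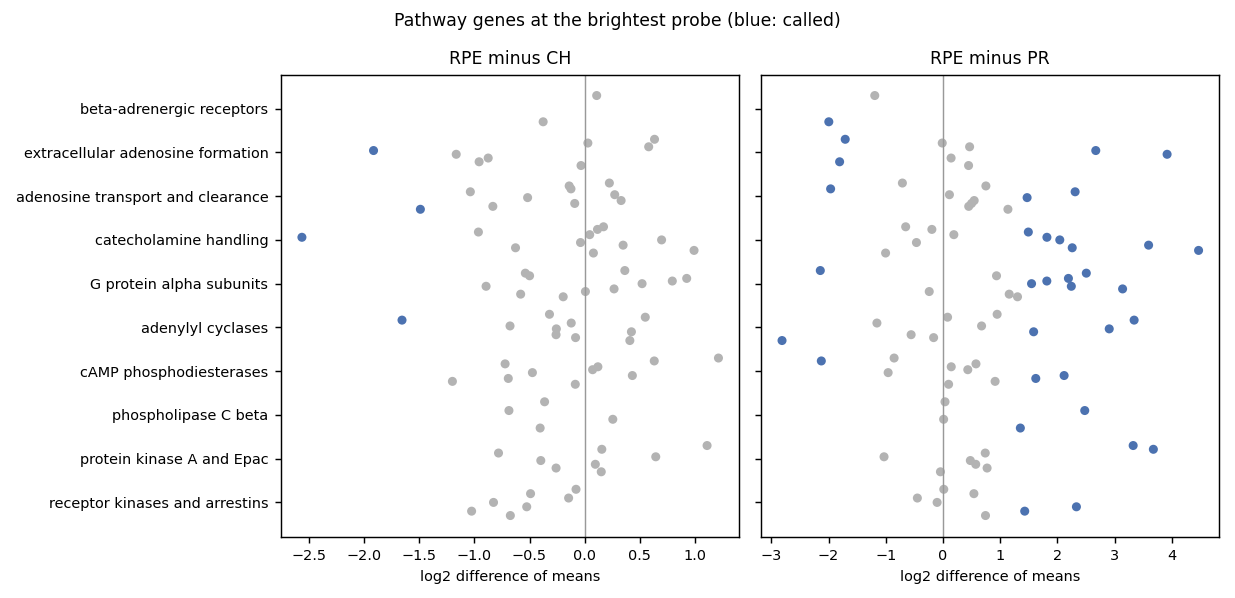
Each point is 1 pathway gene at its brightest probe, with the log2 difference of tissue means on the x axis and the list on the y axis, for RPE minus CH (left) and RPE minus PR (right). Blue points passed both thresholds. On the left the 4 blue points lie below 0, and on the right 27 lie above and 7 below.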

How the data were processed

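The 9 scans were read by the authors with Agilent Feature Extraction 9.5.3.1. Its deposited output gives raw intensity, as a mean signal and a median background per spot and dye. Their series table holds deposited log2 values of the Cy5 channel, whose scaling steps are not given in the sources used here (medians per array 9.38 to 9.55, correlation with log2 Cy5 between 0.985 and 0.999), and was used only as an alternative, as were the processed signals.

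The normexp method (offset 50) removed the background, and loess normalized log2(Cy5/Cy3) within each array. Of 44397 spots, 43020 are not controls. Spots with an outlier mark (228 to 586 per array) were left out and the spots of a probe averaged. A mean per tissue was fitted with limma 3.58.1 (R 4.3.3) and p-values were adjusted by Benjamini-Hochberg over 39429 probes. Genes past a 2.5-fold difference with an adjusted p below 0.01 were called. A gene was read at its brightest probe. A probe not well above background on all arrays of a tissue has a bound only. Percentages of genes called count each gene at its brightest probe. With 3 arrays per tissue, each of 1 eye sample, precision is limited by their number.

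The receptors and the 10 pathway and 14 marker lists were chosen with earlier results of these data known. Named were all receptors, up to 4 called genes of each pathway list with the largest difference, Adrb1, Adrb3 and the 5 genes most alike to each receptor called over both other tissues. Probe positions are those of the files (mm9), where gene models of that build were not used here. RefSeq (GRCm38.p6) matched 26055 probes by accession and was used for names and promoters. Some items are not reported here. The fit was tested on simulated arrays. Figures used Python 3.11.15 and matplotlib 3.10.9. There were 26 alternatives: background, scaling, channel, arrays fitted, replicate and slide blocks, dim and marked spots, probe choice, variance model, thresholds and each array left out.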

Additional observations from a re-analysis of the deposited data

How the results depend on the processing

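Of the calls of the receptors, those of Adora1, Adora2b, Adra2c and Adra2a against the PR were kept in each of the 26 alternatives, in both RPE and CH, and no called difference of a receptor changed direction. None of the alternatives read Adora2b at its other probe alone, where CH minus PR was 0.92 and not called. The count of receptors called between RPE and CH was 1 and rested on Adra2c. It was 0 with the Feature Extraction processed signals, median centring in place of loess, the Cy5 channel alone, the series table, and with only the arrays of both tissues, where the difference of Adra2c was between 1.08 and 1.34. It was 2 with the probe of the largest difference, because Adora2b joined. Leaving out 1 array at a time gave between 0 and 2. The count of pathway genes called between RPE and CH, 4, became 9 with median centring and 8 at a fold change above 2, all higher in the CH, and leaving out 1 array gave between 4 and 6. The counts against the PR stayed within 1.5 times. Of 709 differences of receptors recomputed, 653 moved by less than 1 SD between replicates, 56 by more and 0 reversed a call. Some settings, such as leaving out an array of the tissue outside the comparison, cannot move a difference. The 653 therefore include values that were fixed in advance.

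The main fit did not treat the replicate numbers as pairs. The deviations of arrays with the same number had correlations between -0.08 and 0.29. Of 9 arrays, 5 were nearest to one with their own number. With 3 arrays per tissue, and replicate 2 of each tissue on the same slide, this cannot settle whether samples were paired. With the replicate block the receptors called were 1 between RPE and CH, 5 between RPE and PR and 5 between CH and PR. Adora2a joined against the PR (1.46 and 1.42), but these differences rest on replicate 2 alone, with 1 array per tissue. Nothing is therefore read from its joining. The pathway genes called were 4, 34 and 39. The number of arrays, 3 per tissue, and weak signals of Adra1a, Adra1d and Adora3 near background limit what can be seen. For Adora2a, 4 of 9 arrays were marked.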
